A study of Mus musculus with 32 samples.

Results

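Btbd3 (BTB domain containing 3) was followed through Illumina MouseRef-8 v2.0 arrays of the frontal cortex (FCtx) of 32 female C57BL/6J x FVB/NJ F1 mice. It is 1 of 18138 gene symbols on the array, and is read by the 2 probes, of 25697, that carry its name. Of the mice, 20 had access to a 20% ethanol solution for 20 days (ethanol-treated) and 12 were untreated controls. By the study's methods this access was a choice of ethanol or water in sessions of 3 hours in the dark cycle. Mice were killed 20 hours after the last session. Neither group carried an engineered allele. The labels name 1 direction of the cross whereas the study's methods name reciprocal crosses, and the age of the mice at tissue collection was not given in the sources used here. Chips 1 and 2 each carried 8 ethanol-treated mice, chip 4 carried 8 controls, and chip 3 carried 4 of each. There the ethanol-treated mice held the odd positions (A, C, E, G) and the controls the even ones (B, D, F, H). The gene was selected on its ethanol against control difference on these arrays, so the values of that difference are given as a description with no test.

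BTBD3 belongs to a small family of proteins with BTB, BACK and PHR domains, and BTB domains commonly link proteins to each other and to CUL3 ubiquitin ligases. In the developing sensory cortex, neuronal activity moves BTBD3 from the cytosol to the nucleus, and neurons then retract dendrites that point away from active axons and keep those that point towards them. It is best known for turning the dendrites of layer 4 stellate cells towards the thalamic axons of a whisker barrel. The tissue here is frontal association, cingulate, prelimbic and motor cortex, and dendrites were not measured.

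Both probes are 50 bases long and they share 48 bases, being shifted by 2 bases along the same transcript. Their first 30 bases are shown because they decide how the probes can be read: the capitals mark the bases that both probes contain.
ILMN_2599955: ggGAGATCGTGTGCTTTTCCAAGTGCCCAC
ILMN_1227043: GAGATCGTGTGCTTTTCCAAGTGCCCACCA
The array annotates the former to transcript NM_145534.1 and the latter to NM_001025431.1, but with the same target sequence they cannot tell those transcripts apart. They serve as a repeated reading of 1 sequence, not as independent evidence. The gene spans chromosome 2, 138256584 to 138287424 (30841 bp) in assembly GRCm38.p6. The build behind the array's own probe positions is not stated, so no probe position is given.

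Btbd3 was well detected. Both probes passed a detection p-value of 0.01 on all 32 arrays, and their mean values were 9.27 (ILMN_2599955, the reference probe) and 9.26 (ILMN_1227043) on the normalized log2 scale used throughout, on which 1 unit is a doubling for bright probes. A probe was read by a median of 42 beads on the reference and 45.5 beads on the other. The standard error over these beads had a median of 0.066 and 0.064 log2, whereas the SD between mice of the same condition and chip was 0.13 and 0.14. That spread was above the median of 0.10 over all 10187 tested probes, and 78.6% and 84.4% of them varied less than the Btbd3 probes did.

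Ethanol-treated mice had higher Btbd3 than controls. On the reference probe the level was 9.44 ± 0.13 (SD, n = 20; lowest 9.18, median 9.42, highest 9.65) in ethanol-treated mice and 8.98 ± 0.22 (SD, n = 12; lowest 8.68, median 8.94, highest 9.44) in controls. The difference was 0.46 ± 0.06 log2 (SE), or 1.37-fold, and the other probe gave 0.41 ± 0.06, or 1.32-fold (9.41 ± 0.17 against 9.0 ± 0.16, SD). Folds here and below are taken from the normalized scale and depend on it. Plain log2 signals gave differences of 0.50 and 0.44, and normexp background gave 0.64 and 0.56. By size of increase the probes stood at ranks 13 and 23 of 10187. As background, 237 of 7926 tested genes were higher at a false discovery rate (FDR) below 1% in this comparison, 2.99%. On both probes every one of the 20 ethanol-treated mice exceeded the median control, and 9 exceeded the highest control. In whole-tissue RNA, a change in the number of cells that carry a transcript and a change in its amount per cell cannot be told apart.

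The controls fell into a chip 3 and a chip 4 set. On chip 4 the reference probe read 8.81 in mouse C57, 8.87 in C63, 8.98 in C59, 9.0 in C64, 8.82 in C60, 8.90 in C65, 8.78 in C62 and 8.68 in C66, a mean of 8.85 ± 0.10 (SD). On chip 3 it read 9.25 in C52, 9.44 in C54, 9.18 in C55 and 9.09 in C56, a mean of 9.24 ± 0.15. Every control of chip 3 was above every control of chip 4, and 3 of the 4 lay inside the range of the ethanol-treated mice. The other probe read 9.16, 9.40, 9.05 and 9.01 in the same chip 3 mice and 8.93 ± 0.08 (8.81 to 9.08) on chip 4. There, 2 of the 4 controls of chip 3 were above all of chip 4.

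On the reference probe, ethanol-treated mice differed little between chips. It had a mean of 9.43 ± 0.10 on chip 1 (n = 8), 9.45 ± 0.17 on chip 2 (n = 8) and 9.44 ± 0.12 on chip 3 (n = 4). The order of the 5 sets was therefore chip 2, chip 3 and chip 1 of the ethanol-treated mice, within 0.02 of each other and well inside their SDs, then the controls of chip 3, then those of chip 4. On chip 3 the ethanol-treated mice read 9.62 (A46), 9.40 (A47), 9.37 (A49) and 9.38 (A50), so that only A46 stood above the highest control of that chip, C54. On the other probe the means of chips 1, 2 and 3 were further apart, at 9.32 ± 0.16, 9.52 ± 0.16 and 9.36 ± 0.09. There the chip 3 mice read 9.49, 9.37, 9.34 and 9.27, and again only A46 was above C54.

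**Figure D1:**
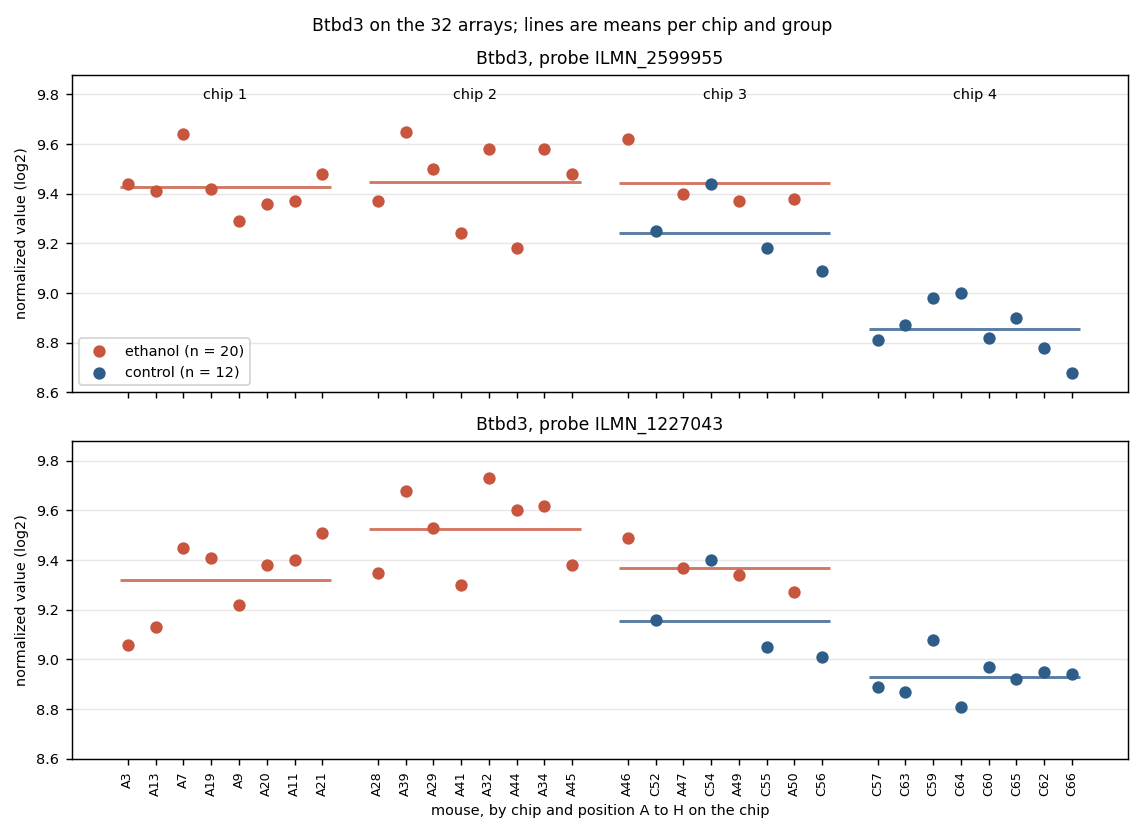
Normalized log2 value of Btbd3 (vertical axis) for every mouse, ordered by chip and position (horizontal axis), with the reference probe above and the other probe below; points are arrays, red for ethanol-treated mice and blue for controls, and lines are the means of a group on a chip. The 8 controls of chip 4 sit between 8.68 and 9.0 on the reference probe, below all 20 ethanol-treated mice, while the 4 controls of chip 3 lie between 9.09 and 9.44.

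The size of the ethanol difference followed the control set it was taken against. As background, 3.22% of tested genes passed an FDR of 1% on chip 3 and 11.3% for chips 1 and 2 against chip 4. Chip 3, the only chip with both groups, gave 0.20 ± 0.08 log2 (SE; 1.15-fold, 4 against 4 arrays) on the reference probe and 0.21 ± 0.08 (1.15-fold) on the other. Chips 1 and 2 against chip 4, which share no array with chip 3, gave 0.58 ± 0.05 (1.5-fold, 16 against 8 arrays) and 0.49 ± 0.06 (1.41-fold). Group and chip cannot be told apart in the latter comparison, nor group and odd or even position in the former. Leaving out chip 4 altogether, an alternative chosen after seeing the data, gave 0.20 and 0.25 against all 20 ethanol-treated mice. With chip as a fixed block the values were 0.20 and 0.21. No other chip holds both groups, so this is the chip 3 comparison again. With position added the values were 0.16 and 0.18, the chip 3 values less the odd and even difference of the other chips.

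The unnormalized signals had the same layout. The reference probe's signal ran from 591 to 831 on chips 1 and 2, from 592 to 798 in the ethanol-treated mice and from 579 to 694 in the controls of chip 3, and from 216 to 431 on chip 4. Chip 4 was also the dimmest chip, with a median signal over all probes of 146 to 168 per array against 166 to 188 on chip 3, 172 to 191 on chip 2 and 181 to 203 on chip 1. The lowest Btbd3 signal, 216, and the lowest array median, 146, both belonged to C66, and without that mouse the normalized difference over all arrays was 0.43 and 0.40. The part of the chips' brightness in the Btbd3 difference was not tested.

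Comparisons inside a condition were not the contrast that chose the gene, and limma p-values are given for them. They reuse the arrays of that contrast, so the p-values of those between chips are not independent of the choice. Over chips 1, 2 and 4, which hold 1 group each, odd minus even positions was 0.04 log2 (95% interval -0.06 to 0.14; adjusted p = 0.646, limma with Benjamini-Hochberg adjustment over all tested probes) on the reference probe and 0.03 (-0.08 to 0.14; adjusted p = 0.793) on the other. In the same comparison 3.65% of tested genes passed an FDR of 1%.

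Controls of chip 3 had higher means than controls of chip 4 at the same even positions, but the difference did not pass the 1% threshold. The reference probe had 9.24 ± 0.15 against 8.86 ± 0.13 (SD, n = 4 each), a difference of 0.38 (95% interval 0.21 to 0.55, limma adjusted p = 0.0135). On the other probe it was 9.16 ± 0.18 against 8.89 ± 0.06, a difference of 0.27 (0.10 to 0.44, limma adjusted p = 0.0529). At 1%, 1.51% of tested genes differed and 0.883% were higher on chip 3. With the threshold at 10%, which both Btbd3 probes passed, 5.78% were higher. With median scaling neither probe passed 10% (limma adjusted p = 0.334 for each). The other probe also missed it with normexp background (0.105), without mouse C54 (0.161) and without mouse C64 (0.136). These 8 mice are among the controls of the comparison that chose the gene, so the low values of chip 4 were partly fixed by that choice.

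Ethanol-treated mice of chip 3 and those of chips 1 and 2 at the same odd positions differed by -0.03 (95% interval -0.17 to 0.12, limma adjusted p = 0.948) and -0.05 (-0.26 to 0.15, limma adjusted p = 0.923). Chip 2 minus chip 1 was 0.02 (-0.11 to 0.15, limma adjusted p = 0.907) on the reference probe and 0.20 (0.05 to 0.35, limma adjusted p = 0.158) on the other. Neither passed the threshold. In the former comparison 0 genes (0%) passed 1% and 23 (0.29%) passed an FDR of 10%, and in the latter 2 (0.0252%) passed 1%. With median scaling, chip 2 minus chip 1 was 0.13 (limma adjusted p = 0.21) on the reference probe. On the other probe it was 0.31 (limma adjusted p = 0.0114), which passed 10%, and 326 genes passed 1%. These mice are among the ethanol-treated group of the comparison that chose the gene, so the closeness of their values may be partly fixed by that choice.

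**Figure D2:**
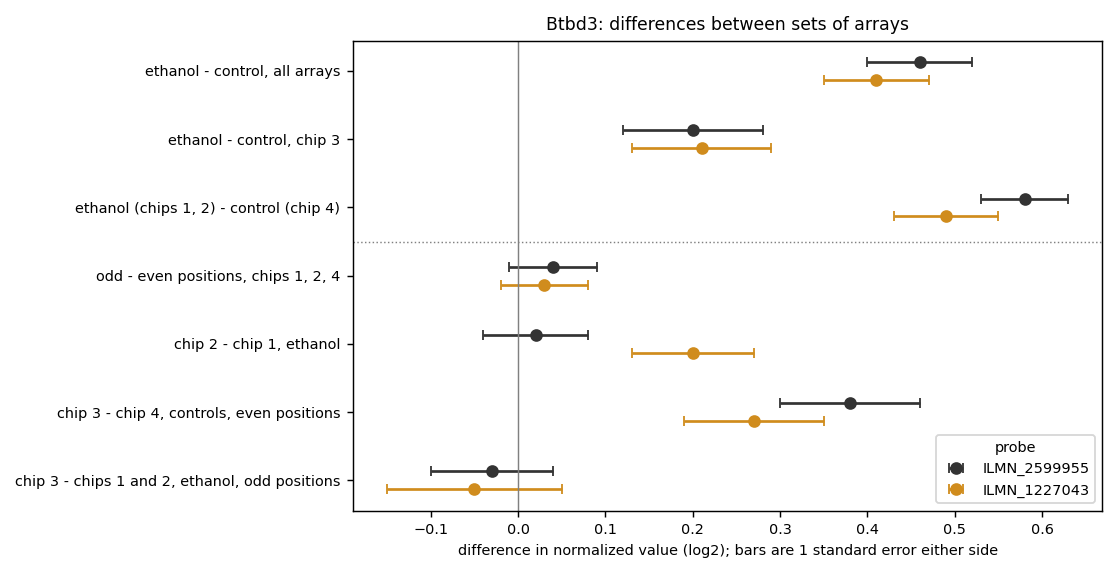
Differences of Btbd3 in normalized log2 value (horizontal axis; points with 1 standard error from limma either side) for 7 comparisons of sets of arrays, in black for the reference probe and in orange for the other. Above the dotted line are the ethanol against control differences, 0.46, 0.20 and 0.58 on the reference probe. Below it are 0.38 between control sets, 0.04 between odd and even positions, and 0.02 and -0.03 between ethanol-treated sets. All use arrays of the comparison that chose the gene.

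Since the probes read practically the same sequence, their disagreement shows part of the error of a single Btbd3 value. Both were read on the same array from the same sample, so errors that they share do not appear in it. After centring within condition and chip, the probes correlated with Pearson's r = 0.509 and Spearman's rho = 0.503 over the 32 arrays (permutation p = 0.009 for each, two-sided, within condition and chip), and without the 2 arrays farthest from the median r was 0.547. Among 254 pairs of tested probes of the same gene that share at least 40 bases, the median r was 0.363 (interquartile range 0.182 to 0.517), and 186 pairs correlated less than the Btbd3 pair. The ethanol differences of such pairs were apart by a median of 0.04, 90% of them by less than 0.09, and those of Btbd3 by 0.05. Differences of a few hundredths between the probes are therefore within what near-identical probes give here.

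The largest gaps between the probes were in single mice. In A44 (chip 2) the reference probe read 9.18 and the other 9.60, and in A3 (chip 1) they read 9.44 and 9.06. On chip 1 the reference probe exceeded the other by 0.11 ± 0.16 (SD, n = 8) and on chip 2 it was lower by a mean difference of -0.07 ± 0.16 (n = 8; exact permutation p = 0.0329, adjusted over 2 comparisons p = 0.0658, two-sided). For controls at even positions it was 0.08 ± 0.04 on chip 3 and -0.03 ± 0.18 on chip 4 (n = 4 each; exact permutation p = 0.314, smallest possible 0.0286).

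**Figure D3:**
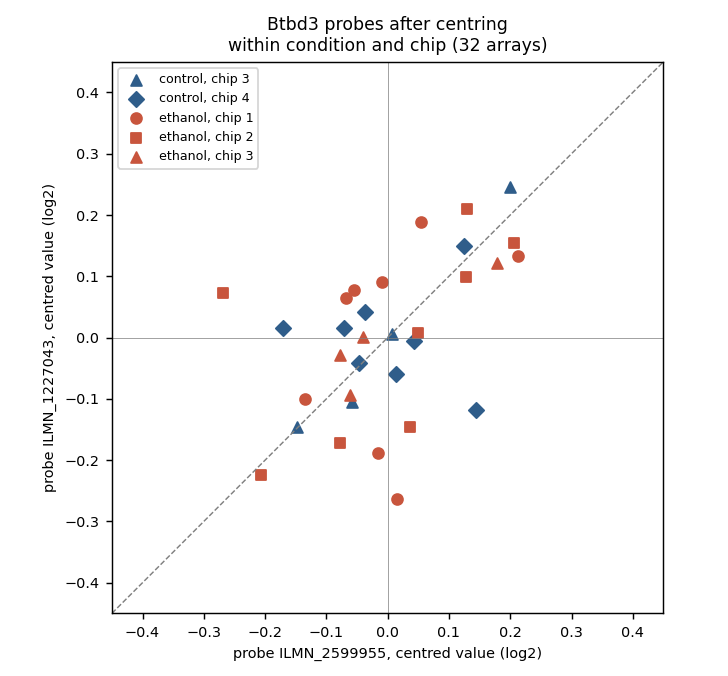
Btbd3 on the reference probe (horizontal axis) against the other probe (vertical axis) on 32 arrays, each centred within its condition and chip on the log2 scale; colour marks the group, symbols the chip, and the dashed line equal values. The points scatter around the line with r = 0.509.

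Genes whose values followed Btbd3 from mouse to mouse were ranked by Pearson's r with the reference probe after the same centring, over the other 7925 tested genes and 32 arrays that share chips and normalization. Here r is given with no test. Slitrk4, a neuronal transmembrane protein of neurites and synapses, was most alike (r = 0.718). Next were Fam134b (now Retreg1, a receptor for turnover of the endoplasmic reticulum, 0.659), the potassium-dependent sodium and calcium exchanger Slc24a3 (0.627) and the histone gene Hist1h2ad (now H2ac7, 0.62), whose probe may also read related histone genes. They were followed by 2600001B17Rik (0.604), the RNA helicase Ddx6 (0.603), the catalytic AMP kinase subunit Prkaa2 (0.602), the nucleotide transporter Slc35b1 (0.602), the synaptic vesicle protein Syn2 (0.600) and the kinase Pdpk1 (0.599). The border was narrow, with Gbas just outside at 0.594.

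Opposite to Btbd3 ran Scye1 (now Aimp1, a scaffold of tRNA synthetases, r = -0.718), Ormdl3, a regulator of sphingolipid synthesis (-0.657), the galactosyltransferase B4galt3 (-0.632), the polyadenylation factor Cpsf1 (-0.619) and the nuclease domain protein Snd1 (-0.606), with Dynlrb1 just outside at -0.601.

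This ranking depended on which of the near-identical probes was the reference. With the other probe the 10 genes kept a positive r, but between 0.0802 (Slc35b1) and 0.429 (2600001B17Rik), and 0 of them stayed among the 10 most alike. Slitrk4 fell to 0.415 and rank 118. The genes were chosen for their r on the reference probe, so lower values on the other follow in part from that choice. Of the 100 genes most alike on the reference probe, 16 were among the 100 of the other. With the mean of both probes, chosen after seeing the data, Slitrk4 (0.646, rank 2) and 2600001B17Rik (0.591, rank 8) remained among the 10 and Ormdl3 (-0.624, rank 3 from the bottom) among the 5.

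The ranking also differed within a single condition. Among the 20 ethanol-treated mice Fam134b (0.847), Slitrk4 (0.826) and Syn2 (0.824) followed the reference probe more closely than among the 12 controls (0.321, 0.438 and 0.226), a gap that was not tested. 2600001B17Rik had the higher r in controls (0.749 against 0.534). From the ethanol-treated mice alone 5 of the 10 genes were found again, and from the controls alone 0. The 10 genes were chosen for their r over all arrays, of which the 20 ethanol-treated mice made up the larger part. A closer match in these mice therefore follows in part from that choice, and r over 12 controls is less precise. These values cannot show whether the ranking depends on the condition.

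**Figure D4:**
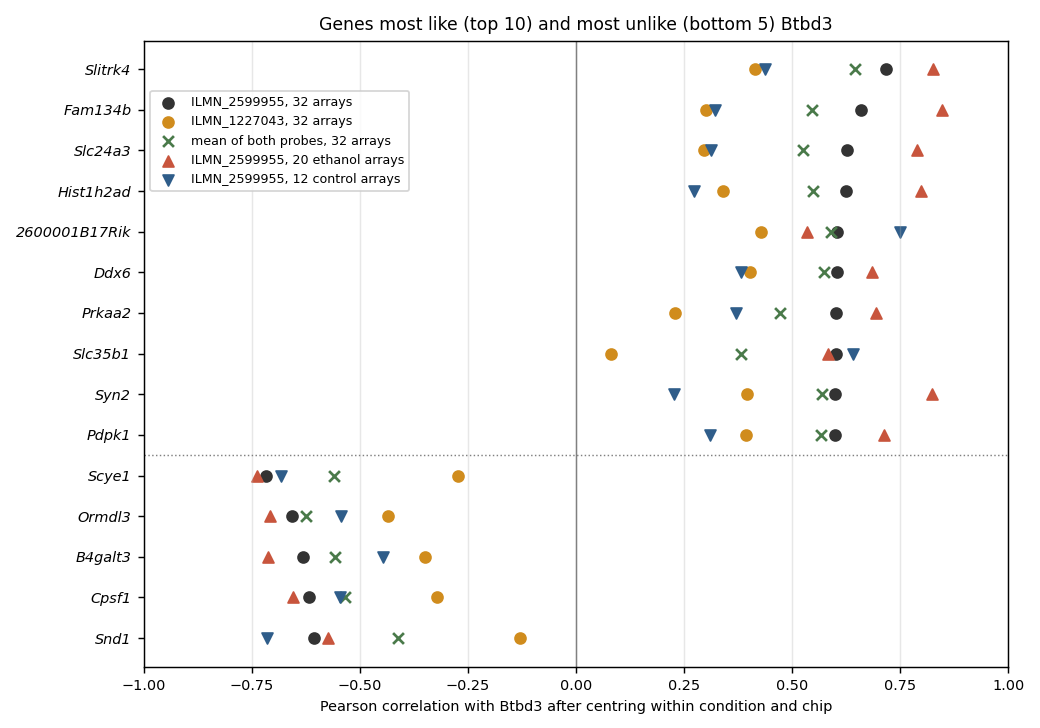
Pearson correlation with Btbd3 after centring within condition and chip (horizontal axis) of the 10 genes most alike and the 5 most unlike it (vertical axis, split by the dotted line); symbols give the reference probe, the other probe, the mean of both, and the reference probe in either group alone. Orange points (other probe) lie closer to 0 than black ones for all 15 genes, for example 0.415 against 0.718 for Slitrk4. The genes were chosen for extreme values on the reference probe, so this follows in part from the choice.

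Against ethanol, most of these genes did not pass an FDR of 1% over all arrays, where 8.06% of tested genes did (2.99% higher, 5.07% lower). Prkaa2 was 8.50 ± 0.20 (SD, n = 20) in ethanol-treated mice and 8.26 ± 0.13 (n = 12) in controls (difference 0.23, limma adjusted p = 0.00604). Scye1 was 10 ± 0.14 against 10.19 ± 0.15 (difference -0.19, limma adjusted p = 0.0082). Syn2 had 12.38 ± 0.24 against 12.12 ± 0.26 (limma adjusted p = 0.0264) and Slitrk4 9.25 ± 0.24 against 9.0 ± 0.18 (limma adjusted p = 0.016). Slc24a3 differed by -0.01 (limma adjusted p = 0.918). Among the 100 genes most like Btbd3, 12 were higher and 0 lower at 1%, with a median difference of 0.13 against -0.01 over all tested genes.

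A list of genes that share domains with Btbd3 had 3 tested members. Mycbp2 is listed for its PHR domain and is not a BTB-BACK-PHR protein. Btbd1, an adaptor of the same family, was 11.06 ± 0.12 in ethanol-treated mice and 10.92 ± 0.10 in controls, a difference of 0.15 (limma adjusted p = 0.0118), with 0.17 on chip 3 and 0.15 for chips 1 and 2 against chip 4. Btbd6, whose fish counterpart acts in neurogenesis, differed by 0.03 (limma adjusted p = 0.713). Mycbp2, a PHR ubiquitin ligase of axons, differed by 0.12 (limma adjusted p = 0.262). None of these passed 1% over all arrays in the main comparison, and Btbd1 passed it once position was in the model (0.15, limma adjusted p = 0.00995).

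Mycbp2 also separated the control sets. Its controls were 10.48 on chip 3 and 10 on chip 4, and the difference at even positions was 0.46 (limma adjusted p = 0.00894). Its ethanol difference was -0.22 on chip 3 (limma adjusted p = 0.0674) and 0.29 for chips 1 and 2 against chip 4 (limma adjusted p = 0.00543), so its sign followed the control set. For Btbd3 both of these differences were positive.

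Of 9 tested other BTBD genes, 1 rose and 1 fell at an FDR below 1%, beside 2.99% higher and 5.07% lower over all tested genes, with a list median of 0.08. Btbd11, expressed in interneurons, rose by 0.12 (9.64 ± 0.08 against 9.52 ± 0.08, limma adjusted p = 0.00744), and was -0.02 on chip 3. The transcriptional repressor Nacc1 fell by 0.19 (8.39 ± 0.15 against 8.58 ± 0.13, limma adjusted p = 0.00926), with -0.21 on chip 3.

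Of 26 tested genes of the CUL3 ligase and its BTB adaptors, 2 rose and 0 fell (2.99% and 5.07% over all tested genes), and the list median was -0.02. The adaptor Tnfaip1, which directs RhoA to degradation, was 10.96 ± 0.08 against 10.79 ± 0.11, and the median control was exceeded by all 20 ethanol-treated mice (difference 0.17, limma adjusted p = 0.00119, with 0.07 on chip 3). Klhl24, a Kelch adaptor, was 8.27 ± 0.11 against 8.11 ± 0.10 (difference 0.16, limma adjusted p = 0.00371, with 0.18 on chip 3).

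Of 41 tested genes of activity-dependent dendrite growth, 1 rose and 4 fell (2.99% and 5.07% over all tested genes), with a median of -0.01. The GTPase Cdc42 rose by 0.27 (limma adjusted p = 0.00123), with 0.08 on chip 3 and 0.34 for chips 1 and 2 against chip 4. The genes that fell were the calcium-dependent kinase kinase Camkk1 (difference -0.30, limma adjusted p = 0.00113), the secreted growth factor Nrn1 (-0.21, adjusted p = 0.00141), the actin regulator Limk1 (-0.20, adjusted p = 0.00528) and the CREB coactivator Crtc1 (-0.18, adjusted p = 0.00732). Their chip 3 differences were -0.38, -0.19, -0.25 and -0.22. On chip 3, where 3.22% of tested genes passed 1%, 2 members rose and 2 fell. These were the neurotrophin gene Bdnf (0.36, adjusted p = 0.00953), the GTPase Rap1b (0.25, adjusted p = 0.00908), the kinase subunit Camk2g (-0.35, adjusted p = 0.00326) and Camkk1 (-0.38, adjusted p = 0.00787). The former 3 were named after their values were seen. Camkk1 was also lower at odd than at even positions of chips that hold 1 group (-0.26, limma adjusted p = 0.00223), as was Nrn1 by -0.16 (limma adjusted p = 0.0178, short of 1%). For Limk1, 0 of the 20 ethanol-treated mice exceeded the median control.

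Of 14 tested genes of barrel cortex patterning, the setting in which Btbd3 is best known, 1 rose and 0 fell (2.99% and 5.07% over all tested genes), with a median of 0.04. Efna5, a guidance ligand of thalamic axons, was 10.26 ± 0.20 against 10.02 ± 0.19 (difference 0.24, limma adjusted p = 0.00967). On chip 3 it rose by 0.42 (limma adjusted p = 0.00287), and odd minus even positions on the other chips was 0.25 (limma adjusted p = 0.0117). For Btbd3 the same odd and even difference was 0.04.

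The 12 genes called over all arrays among these lists and the genes most like Btbd3 were Prkaa2, Scye1, Btbd11, Nacc1, Tnfaip1, Klhl24, Cdc42, Camkk1, Nrn1, Limk1, Crtc1 and Efna5. With chip as a fixed or random block, or without chip 4, 0 of the 12 kept an FDR below 1%. With median scaling Cdc42 and Klhl24 kept it, and without mouse C66 Crtc1, Efna5, Nacc1, Prkaa2 and Scye1 lost it. Klhl24 and Nacc1 had no value when only probes detected on all arrays were tested. With normexp background their differences were 0.40 and -0.37. Median scaling also put the medians of the CUL3 and dendrite growth lists at 0.02 and 0.03, above 0, where the median of all genes was 0.03.

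**Figure D5:**
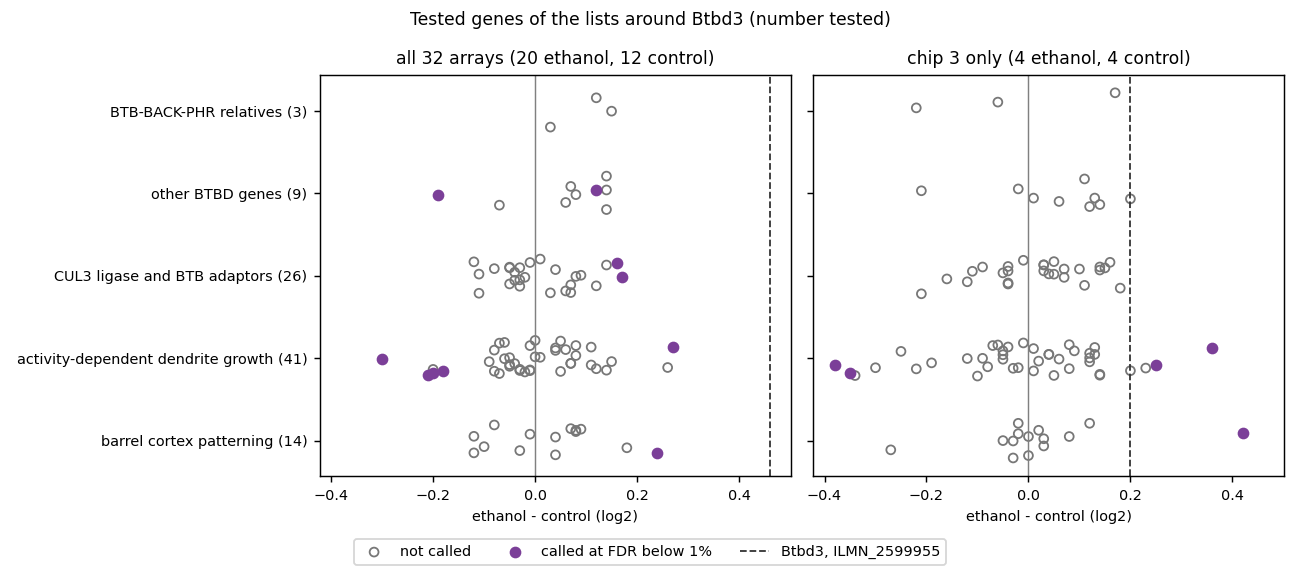
Ethanol minus control difference in normalized log2 value (horizontal axis) of the tested genes of 5 lists around Btbd3 (vertical axis; points are spread vertically for legibility), over all arrays on the left and on chip 3 on the right; filled points passed an FDR of 1% and the dashed line is Btbd3's reference probe. The line, at 0.46, lies beyond all list members on the left, whereas at 0.20 on chip 3 it lies among them. Btbd3 was selected on its ethanol against control difference, so the place of the line on the left follows in part from that choice.

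Cell type markers were read beside these values. The lists had between 2 and 10 tested markers each, and over all tested genes 2.99% were higher and 5.07% lower. Of 4 tested excitatory neuron markers, 3 fell at 1% (Slc17a7 by 0.26, Tbr1 by 0.33 and Nptx1 by 0.20), and the list level ran from 9.87 to 10.25 in ethanol-treated mice and from 10.11 to 10.43 in controls. Of 9 immediate early genes, 3 fell (Arc by 0.49, Junb by 0.20 and Fosb by 0.14), with list levels of 9.44 to 9.92 and 9.55 to 10.06. Aqp4 rose by 0.49 (1 of 10 astrocyte markers) and Fezf2 fell by 0.16 (1 of 7 deep layer markers). The remaining lists (neurons, GABAergic interneurons, superficial layers, layer 4, oligodendrocytes and their precursors, microglia, endothelium, olfactory bulb, striatum) had 0 called genes over all arrays. With chip as a fixed block, where only chip 3 compares the groups, 0 of these 8 called markers kept an FDR below 1%. Without chip 4 it was Tbr1 and Nptx1 that kept it.

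On chip 3, where 3.22% of tested genes passed 1%, more of the lists moved. In the olfactory bulb list 2 of 3 markers rose (Doc2g by 0.62 and Pcdh21 by 1.39), and 3 of 10 astrocyte markers rose (Aqp4, Slc1a3 and Gjb6, by 0.53, 0.36 and 0.40). The GABA-synthesizing enzyme Gad1 rose by 0.59, the endothelial junction gene Cldn5 by 0.44, and the oligodendrocyte gene Cnp fell by 0.54, each the only called member of its list, with an oligodendrocyte median of -0.38. Of the excitatory markers Slc17a7 and Tbr1 fell by 0.47 and 0.51 and Slc17a6 rose by 0.45, with a median of -0.38, and of the deep layer markers Crym fell by 0.30. Of 5 olfactory bulb markers, 3 were tested, and Eomes and Tbx21 did not pass the detection filter. The list had a median difference of 0.22 over all arrays, 0.62 on chip 3 and 0.31 for odd minus even positions of the other chips. Its levels were 7.91 to 9.89 in ethanol-treated mice and 7.89 to 9.51 in controls. The part of these lists in the Btbd3 difference was not tested.

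Between mice of the same condition and chip, Btbd3 could be set against the list scores directly. Of 15 relations (12 list scores and 3 array measures), 0 passed an adjusted p of 0.05 (Benjamini-Hochberg) and 0 a raw p of 0.05. With median scaling 8 of the 15 passed, all with r above 0, among them GABAergic interneurons (0.708, permutation adjusted p = 0.0015), astrocytes (0.669, permutation adjusted p = 0.00315) and neurons (0.578 in place of -0.194). That scaling also moved the median r of Btbd3 over all genes from -0.00805 to 0.431. The closest were GABAergic interneurons (r = 0.368, rho = 0.318, permutation p = 0.0761, adjusted p = 0.669, with r = 0.298 without the 2 farthest arrays) and endothelium (r = 0.311, rho = 0.370, permutation p = 0.127, adjusted p = 0.669, with 0.304 without them). Excitatory neurons had r = -0.0527 and immediate early genes 0.0395. On the other probe astrocytes had r = 0.57, against 0.201 on the reference, so here too the probes differed. The median signal of the array had r = -0.061.

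Along chromosome 2, 12 coding genes lie within 2 Mb of Btbd3 and 3 of them were tested. Pak7, Mkks and Tasp1 differed by 0.10, -0.11 and -0.03 between ethanol-treated mice and controls (limma adjusted p = 0.162, 0.0542 and 0.493), and none passed 1%.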

How the data were processed

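The intensities that the authors deposited are mean bead signals per probe and array on a linear scale, not normalized; whether background was subtracted is not given in the sources used here. The authors also deposited detection p-values, and as other values the bead standard error and bead number. Per the labels, lumi and limma were used. Here signals underwent a re-implemented variance-stabilizing transform (lumi itself was not used), fitted to log2 at bright signals, and quantile normalization in R 4.3.3. The 10187 probes (7926 genes) whose detection p-value was under 0.01 in 24 or more of the 32 arrays were tested with limma 3.58.1, with no covariate except chip for odd against even positions and position for chip 1 against chip 2. Adjusted p-values are Benjamini-Hochberg over all tested probes; a gene is its brightest tested probe and is called at an FDR below 1%. Permutations (100000) ran in Python 3.11.15 with scipy 1.17.1, and the scripts were tested on simulated data. Group, chip and position come from the labels.

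Named genes were Btbd3, the 10 genes most like and 5 most unlike it, all tested BTB-BACK-PHR relatives, and members of the other pathway lists called at 1% over all arrays (at most 6 a list). Members and lists were chosen with earlier results of these data known. Alternatives were log2, normexp background with an offset of 16, median scaling, other probe filters, chip or position in the model, array weights and left-out arrays. The number of arrays limits the precision.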

Additional observations from a re-analysis of the deposited data

Results flagged for a closer look

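Among the 4 ethanol-treated mice of chip 3, mouse A46 stood apart on the reference probe of Btbd3 with a value of 9.62, while the others lay between 9.37 and 9.40. Its gap to the nearest was 0.855 of the range of the set. The same mouse read 9.49 on the other probe, where the set ran from 9.27. In all, 10 groups of values were examined in this way, and chance gives about 1 such group in 20. Groups read on both probes share their arrays, so they are not separate chances.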

How the results depend on the processing

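Ethanol minus control stayed positive for both Btbd3 probes under all alternatives run. The gene was selected on that difference and the alternatives reuse the same arrays, so the constant sign was partly fixed by the choice. The fixed chip block repeats the chip 3 comparison. Values are the reference probe, then the other. Over all arrays normexp background gave 0.64 and 0.56, chip as a fixed block 0.20 and 0.21, chip with position 0.16 and 0.18, and leaving out chip 4 0.20 and 0.25; for chips 1 and 2 against chip 4 normexp gave 0.82 and 0.68. Leaving out 1 array at a time, chip 3 gave 0.14 to 0.27 and 0.16 to 0.29, controls of chip 3 against chip 4 gave 0.31 to 0.43 and 0.19 to 0.32, ethanol-treated mice of chip 3 against chips 1 and 2 gave -0.09 to 0.00 and -0.10 to -0.02. Without C66 alone chips 1 and 2 against chip 4 gave 0.56 and 0.49. The causes were not tested.

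Counts of called genes moved more. A fixed chip block and left-out arrays also leave fewer arrays to compare the groups, so these counts do not have equal precision. Over all arrays 639 became 95 with median scaling (71 higher and 24 lower, 74.7% higher, against 37.1% in the main comparison), 13 with chip as a fixed block, 2 with chip and position, 55 with chip as a random block, 119 without chip 4, 431 without C66 and 1014 at an FDR of 10% with 1.1-fold. On chip 3, 255 became 17 (normexp), 107 (median scaling) and 94 to 303 without 1 array, the lowest without C54. Chips 1 and 2 against chip 4, 899, became 282 (median scaling), 186 (odd positions), 209 (even positions) and 738 without C66. Odd against even, 289, became 185 (normexp) and 0 (median scaling). Chip 1 against chip 2, 2, became 1 (log2), 0 (normexp) and 326 (median scaling). Controls of chip 3 against chip 4, 120, became 3 (normexp), 0 (median scaling) and 30 to 150 without 1 array, the lowest without C55. Of the 12 named genes called, 0 kept their call with a chip block or without chip 4, 2 with median scaling, 6 with position or with all probes, 7 without C66, 8 with normexp, 10 with array weights and 11 on the log2 scale.

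Of the 10 genes most like Btbd3, 3 stayed with median scaling, 6 with centring by position, 5 in ethanol-treated mice, 0 in controls, 6 by Spearman, 0 with the other probe, 2 with both probes and 4 without C66. The genes were chosen over all arrays, most of them from ethanol-treated mice, so the counts by condition follow in part from that choice. Median scaling turned Ormdl3 (0.269) and B4galt3 (0.264). It also gave 8 relations past an adjusted p of 0.05, and turned neurons (0.578), excitatory neurons (0.500), oligodendrocytes (0.285), their precursors (0.348), striatum (0.237) and array signal (0.185). Striatum turned with normexp (0.0104) and by position (0.0148), as did excitatory neurons by position (0.0321).

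Ethanol differences that changed sign were Slc24a3 (median scaling 0.02, fixed block 0.12, random block 0.02, array weights 0.01), Mycbp2 (fixed block -0.22, with position -0.08, without chip 4 -0.20), 2600001B17Rik (fixed block -0.03, with position -0.07), Ormdl3 (0.02 and 0.01), Btbd6 (-0.06 and -0.10) and Btbd11 (-0.02 and -0.03). With chip and position Slitrk4 (-0.05), Fam134b (-0.06), Ddx6 (-0.06), Syn2 (-0.10), Pdpk1 (-0.02) and B4galt3 (-0.01) turned too. No paired analysis was possible because the mice of both groups share no number.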
